A study of Mus musculus with 14 samples.

Results

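Strong narrow AHCY peaks were examined in mouse embryonic stem cells. These are compact stretches of chromatin recovered with an AHCY antibody that passed a score limit in both replicates. They were chosen by the deposited score, width and overlap of the peaks. A replicate 1 peak had to lie on one of 16 chromosomes (1 to 5, 7, 9, 10 and 12 to 19), be under 3000 bp wide, score 80 or more, and share at least 1 bp with a replicate 2 peak that also scored 80 or more. This gave 492 peaks, which were 11.02% of the 4465 replicate 1 peaks and 14.8% of the 3324 narrow replicate 1 peaks on these chromosomes. The other 2832 narrow peaks served for comparison. Because the scores, widths and overlap chose the peaks, those values are given as descriptions without a test.

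The cells were E14, a line derived from a male blastocyst of strain 129/Ola, with genotype WT. They grew in serum-free N2B27 medium with PD0325901, an inhibitor of the MEK kinase, CHIR99021, an inhibitor of the GSK3 kinase, and Leukemia Inhibitory Factor. This culture holds the cells in the naive state of pluripotency. The antibody was a rabbit AHCY antibody (MBL RN126PW), and 2 libraries were made with it. The series has 14 libraries in all. Its IgG control library and its 11 RNA-seq libraries, which include Ahcy hairpins and EdU fractions, are not analysed here. Nothing in the labels says whether the replicates came from separate cultures, so the spread between them may be technical.

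AHCY, S-adenosylhomocysteine hydrolase, splits S-adenosylhomocysteine into adenosine and homocysteine. S-adenosylhomocysteine is what remains of S-adenosylmethionine after a methyl group has been transferred, and it inhibits the methyltransferases that act on DNA, RNA and histones. The enzyme therefore keeps methylation running, and it has been found in the nucleus as well as the cytosol. In chromatin immunoprecipitation with sequencing (ChIP-seq), a peak is a stretch where reads pile up beyond a background. All peak names in both lists begin with MACS, the name of a peak caller. Early versions of MACS write the score as -10 times the log10 of a p-value. On that reading a score of 80 is a p-value of 1e-08, and the lowest listed score of 50 is 1e-05. The labels and files do not state the version, and such a score rises with read depth, which is unknown for both libraries. The rule applies the same limit of 80 to both lists, and that limit may not be equally strict in each. Ranks are taken within each list, and scores set side by side across the lists are descriptions only.

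The 492 peaks scored between 80.03 and 285.8 in replicate 1, with a median of 105.8 (interquartile range 90.5 to 127.5). Their replicate 2 partners scored between 80.03 and 407.6, with a median of 121.9 (99.0 to 164.1). The number of sites fell steeply with a higher limit in both lists: 229 of the 492 peaks (46.5%) scored 100 or more in both, 33 (6.71%) scored 150 or more in both, and 7 (1.42%) scored 200 or more in both. Within the whole lists, the peaks held ranks 3 to 1424 of 4465 in replicate 1, with a median rank of 619.5. Their partners held ranks 53 to 4878 of 11733 in replicate 2, with a median rank of 2065. Of the 492, 36 were among the best 100 of the replicate 1 list, and 6 had a partner among the best 100 of the replicate 2 list.

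**Figure D1:**
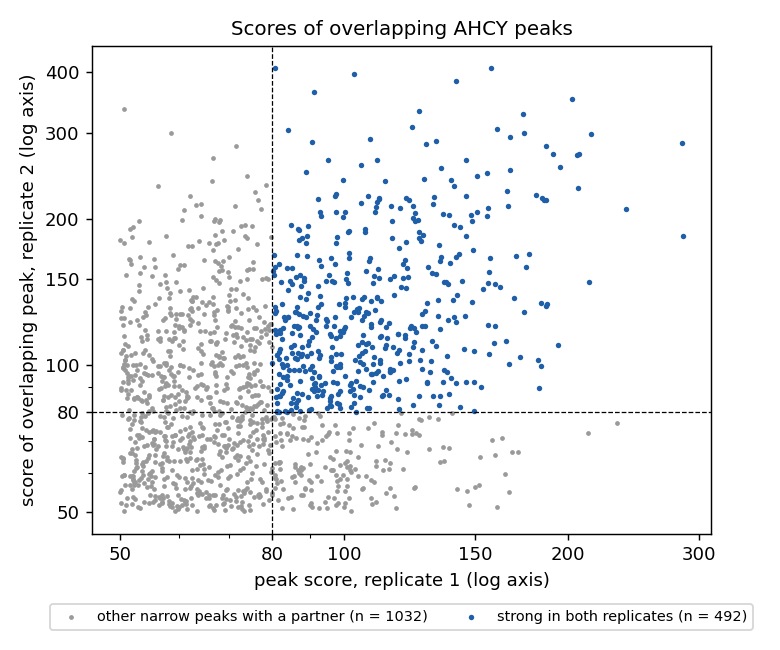
Each point is a narrow replicate 1 peak with an overlapping replicate 2 peak, placed by its replicate 1 score (horizontal) and the score of its best-scoring replicate 2 partner (vertical), both on log axes. The dashed lines mark the limit of 80; the 492 peaks at or above it in both lists are blue and the other 1032 are grey, and the blue cloud is densest near the limit and spreads widely on both axes.

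The order of the peaks was only loosely shared by the replicates. Across the 492 peaks, which come from 1 pair of libraries, Spearman's rho between the scores was 0.31 and Pearson's r of the log2 scores was 0.37. Over all 1524 narrow peaks with a partner, rho was 0.26 and r was 0.32. The limit of 80 removes the low end of both scores among the 492, so these values describe a truncated range.

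The strongest site by the mean of its ranks among the 492 was chr3:58809177-58811653 (mm9), with a score of 202.7 in replicate 1 and 352.5 in replicate 2. It was followed by chr4:46356831-46359315, with 214.8 and 298.5, and chr4:133368823-133371203, with 284.5 and 285.5. The last of these had rank 2 among the 492 in replicate 1 and rank 18 in replicate 2. These 3 sites were high in both lists. Next came chr9:110434244-110436088 (206.8 and 271.0), chr2:128792510-128793909 (205.7 and 270.6) and chr19:3766568-3768916 (190.9 and 271.4). The site on chromosome 2 was the narrowest of the best 12, at 1400 bp. The rest of the best 12 were chr3:58218468-58221048, chr12:57633802-57636294, chr2:51926884-51929345, chr18:53623221-53625324, chr9:44688314-44690042 and chr5:43623513-43625561. Their replicate 1 scores ran from 157.8 to 206.2 and their replicate 2 scores from 231.2 to 407.6. Sites high in both lists were thus spread over 8 chromosomes, and those 2 on chromosome 3 lay 588 kb apart.

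A high score in one list did not ensure a high one in the other. The top replicate 1 score of the 492 belonged to chr10:36855563-36858499, at 285.8 (rank 3 in the whole list). Its replicate 2 partner scored 184.0 and was 96th among the 492. The top replicate 2 score, 407.6, belonged to the partner of chr9:44688314-44690042, which was 43rd in replicate 1 at 157.8. The largest rank differences toward replicate 1 were at chr12:103366731-103368462 (149.8 against 80.6), chr12:35731189-35732783 (183.2 against 89.8) and chr17:24487677-24490067 (143.1 against 82.2). Toward replicate 2 they were at chr9:44690244-44691743 (80.8 against 407.6), chr17:34258209-34260062 (84.0 against 304.8) and chr5:28117532-28119115 (80.5 against 168.6). Each of these 6 sites passed the limit in both lists, yet they held ranks 1 to 112 among the 492 in one list and 427 to 490 in the other. At the chr9 and chr17 sites named toward replicate 2, the partner was centred outside the site and shared 361 bp and 464 bp with it. The partner of that chr9 site is also the 407.6 partner of chr9:44688314-44690042.

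Some sites lay very close to the limit. Just inside it were chr2:120434288-120435762 (83.8 in replicate 1 and 80.03 in replicate 2), chr17:13184379-13186043 (80.03 and 100.8), chr4:104781418-104783937 (103.8 and 80.1), chr4:53171305-53173149 (81.4 and 80.2) and chr7:87546243-87548442 (80.2 and 156.2). Just outside were chr10:76879813-76881214 (79.96 and 109.1), chr17:34065713-34068390 (139.6 and 79.9), chr4:155264088-155266788 (79.9 and 121.4), chr13:42147329-42148408 (119.3 and 79.89) and chr5:144014556-144017043 (79.75 and 183.2). These sites were picked for lying closest to the limit, so their small differences in the deciding score follow from that choice.

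Of the 979 narrow replicate 1 peaks that scored 80 or more, 492 (50.3%, exact 95% interval 47.1 to 53.4%) had a partner of 80 or more in replicate 2. Another 189 (19.3%, 16.9 to 21.9%) had a weaker partner, and 298 (30.4%, 27.6 to 33.4%) had none. These and all later intervals of shares are Clopper-Pearson intervals. They reflect counting error alone and treat peaks as independent, which close peaks are not. The share with any partner rose with the replicate 1 score, from 63.2% at 80 to 100, through 70.5% at 100 to 120 and 79.6% at 120 to 160, to 88.7% (47 of 53 peaks) at 160 or more. The share with a strong partner rose from 41.9% to 73.6% over the same range. Among the 2345 narrow peaks below 80 in replicate 1, 843 (35.9%) had a partner, and 458 (19.5%) had one of 80 or more.

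**Figure D2:**
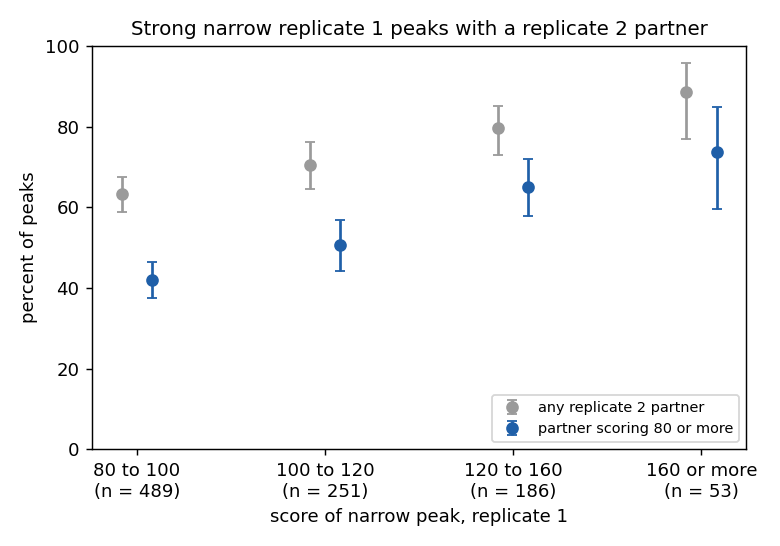
For narrow replicate 1 peaks in 4 score ranges (horizontal), points give the percent with any overlapping replicate 2 peak (grey) and with one scoring 80 or more (blue), and bars are exact 95% intervals. Both shares climb from the lowest to the highest range, from 63.2% to 88.7% and from 41.9% to 73.6%.

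Of the 979, 69.6% thus had a partner of any score, and the same comparison from the other side gave lower shares. On the 16 chromosomes, replicate 2 listed 1873 peaks under 3000 bp with a score of 80 or more, and 953 of them (50.9%) overlapped a replicate 1 peak. Of these 1873 peaks, 515 (27.5%) overlapped one of 80 or more. Chromosome 14, where replicate 2 listed many peaks that replicate 1 lacked, lowered these shares slightly: without it they were 54.2% and 29.3%. These 515 are not the partners of the 492: replicate 1 peaks of any width count here, and 21 partners of the 492 were too wide to be among the 1873.

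Strong replicate 1 peaks without a partner were rarely near misses. Of the 298, a replicate 2 peak lay within 1 kb of 8 (2.68%) and within 20 kb of 63 (21.1%), and the median distance was 56.6 kb. The strongest of them were chr19:59418622-59421208 (score 262.8), chr1:167931465-167933994 (258.3) and chr18:10865691-10868394 (174.2). The nearest replicate 2 peaks lay 112 kb, 359 kb and 139 kb away. These 3 were named after their values were seen. For comparison, a replicate 2 peak that did not overlap the site lay within 1 kb of 7 of the 492 (1.42%) and within 20 kb of 67 (13.6%). Within 20 kb the same held for 484 of the 2345 narrow peaks below 80 (20.6%).

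The 492 peaks were 763 to 2999 bp wide in replicate 1. The median was 1796.5 bp, and the middle 50% ran from 1481 to 2209.75 bp. The 298 strong peaks without a partner had a median of 1765 bp and the 189 with a weaker partner 1803 bp, while peaks below 80 were narrower, at 1387 bp. Among strong narrow peaks the median width was thus much the same with and without a partner. The rule did not limit the partner's width, and the partners of the 492 were 675 to 4647 bp wide, with a median of 1663 bp. In 21 cases (4.27%) the partner was 3000 bp or wider. The replicate 1 peak was the wider of the 2 at 304 sites (61.8%, 57.3 to 66.1%). Widths in the 2 lists went together across the 492 sites (rho 0.63, r of log2 widths 0.60), more closely than the scores did (rho 0.31).

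Narrowest in replicate 1 were chr14:8930231-8930993 (763 bp), chr4:129952027-129952807 (781 bp) and chr17:15967780-15968600 (821 bp). The partners there were wider, at 1021, 1554 and 1319 bp. The widest were chr2:172762926-172765924 (2999 bp), chr5:111236266-111239263 (2998 bp) and chr9:106786588-106789570 (2983 bp). Their partners measured 1800, 2832 and 3139 bp. At the last of these the midpoints lay 4 bp apart, and at the first 799.5 bp.

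Where the replicates placed the sites, they placed them closely. The median distance between the midpoints of peak and partner was 148 bp, with quartiles of 59.25 and 321.5 bp. The median ratio of this distance to the mean width of the pair was 8.88%. They were within 100 bp at 193 sites (39.2%) and over 500 bp apart at 58 (11.8%). The partner's midpoint lay at the higher coordinate at 260 sites and at the lower at 232, with a median signed offset of 12.75 bp. The stretch covered by both peaks had a median length of 1484.5 bp, and its share of the replicate 1 peak a median of 87.6%. At 171 sites (34.8%) the replicate 2 peak lay wholly inside the replicate 1 peak, and at 69 (14.02%) the reverse held.

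Overlap limits this distance but does not fix it, so it can be set beside that of other overlapping peaks. The 189 strong peaks with a weaker partner had a median midpoint distance of 185.5 bp (10.9% of the mean width), and the 843 peaks below 80 with a partner had 170 bp (11.1%). Their interquartile ranges, 56 to 372.5 bp and 63.75 to 345.75 bp, overlapped that of the 492. Across the 492, rho of the distance was -0.01 with the replicate 1 score and 0.11 with the replicate 2 score.

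**Figure D3:**
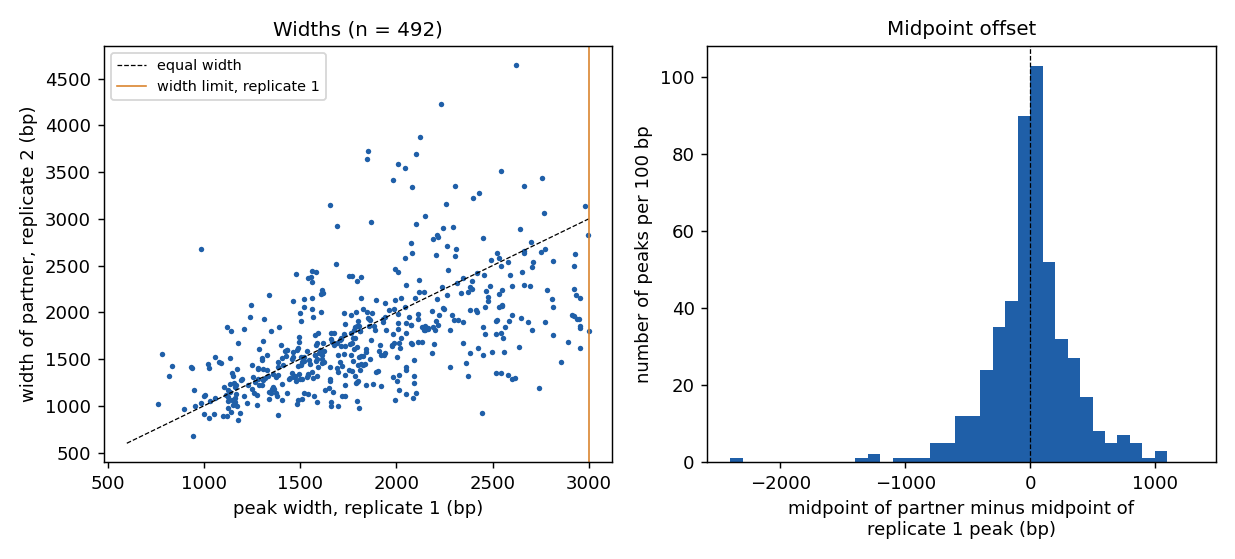
Left, the width in replicate 1 (horizontal, bp) and the width of the partner in replicate 2 (vertical, bp) of the 492 peaks, with the line of equal width dashed and the width limit in orange; 304 points lie below the line. Right, a histogram of the midpoint of the partner minus that of the replicate 1 peak in steps of 100 bp, centred near 0 with a median of 12.75 bp.

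Every one of the 16 chromosomes held such sites, from 11 on chromosome 14 and 16 on chromosome 16 to 62 on chromosome 2. Relative to the span between the first and last listed peak, they were densest on chromosome 19, with 3.79 per 10 Mb, followed by chromosomes 2 (3.48), 9 (3.33) and 17 (3.26). They were sparsest on chromosome 14, with 0.953 per 10 Mb. Chromosomes rich in them were rich in narrow peaks generally. The share of narrow replicate 1 peaks that met the rule ran from 11.2% on chromosome 10 (25 of 224, interval 7.35 to 16.03%) to 17.2% on chromosome 2 (62 of 360, 13.5 to 21.5%), against 14.8% over all. The interval of each of the 16 chromosomes included 14.8%. Chromosome 14, the sparsest, stood at 12.2% (11 of 90, 6.26 to 20.8%).

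**Figure D4:**
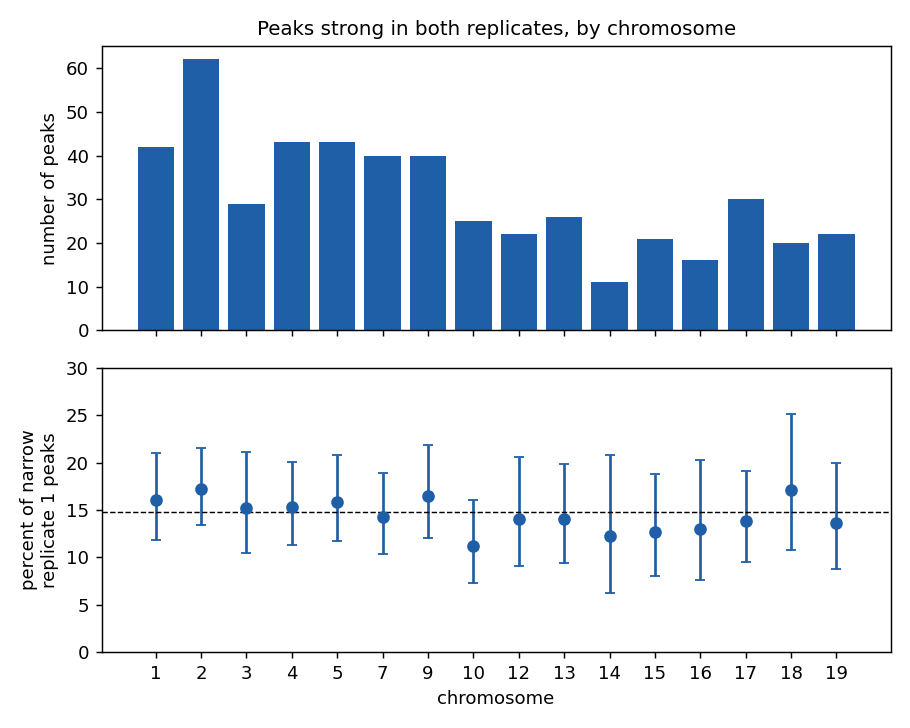
Top, the number of peaks strong in both replicates on each of the 16 chromosomes. Bottom, their percent of the narrow replicate 1 peaks of that chromosome with exact 95% intervals; the dashed line is the value over all 16, 14.8%, and lies within every interval.

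The best site by mean rank on each chromosome outside those already named was chr1:154748455-154751377 (165.7 in replicate 1 and 228.4 in replicate 2), chr7:74903325-74905032 (139.4 and 239.8), chr10:94405804-94408326 (141.4 and 383.7), chr13:56352410-56354161 (132.2 and 221.7), chr14:68550624-68552442 (181.4 and 223.6), chr15:39028192-39030885 (140.7 and 233.2), chr16:8829859-8831729 (126.9 and 179.7) and chr17:87845384-87847154 (167.2 and 251.5). Chromosome 16 had the weakest leader, 128th in replicate 1 and 102nd in replicate 2 among the 492. The midpoints of the replicates at these 8 leaders lay from 6.5 bp apart on chromosome 10 to 468 bp apart on chromosome 17.

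Along the chromosomes, the sites were fewer near the start and more frequent toward the end. With each chromosome's span divided into 4 equal parts from low to high coordinates, the parts held 93 (18.9%), 128 (26.0%), 121 (24.6%) and 150 (30.5%) of the 492. The other narrow peaks held 22.4%, 20.6%, 24.3% and 32.8% in the same order. Their shares also were highest in the last part, and the intervals of the first part, 15.5 to 22.6% and 20.8 to 23.9%, overlapped. In the second part the sites had the higher share, and its interval, 22.19 to 30.1%, lay just above that of the others, 19.1 to 22.16%. With 4 parts compared and neighbouring peaks not independent, little can be read from this, and it was not tested.

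Most strong narrow sites, like most other narrow peaks, had no other peak within 20 kb. The nearest other replicate 1 peak of any kind lay a median of 93.8 kb away (interquartile range 36.9 to 237 kb), compared with 78.9 kb (27.8 to 196 kb) for the other narrow peaks. A replicate 1 neighbour within 20 kb was found for 80 of the 492 (16.3%, 13.1 to 19.8%) and for 564 of the 2832 others (19.9%, 18.5 to 21.4%). The intervals overlapped. Replicate 2 peaks that did not overlap the site itself were within 20 kb of 67 of the 492 (13.6%, 10.7 to 16.97%) and of 592 of the others (20.9%, 19.4 to 22.4%), and here the intervals were apart. Restricted to others with a partner, as the 492 all have, the share was 18.2% (188 of 1032, 15.9 to 20.7%), whose interval overlapped that of the 492. Among these 1032, the 189 that scored 80 or more in replicate 1 had a replicate 1 neighbour in 16.9%. Their share with a replicate 2 neighbour was 23.8% (17.9 to 30.5%), an interval apart from that of the 492. Without chromosome 14 the share was 13.5% for the 492, 21.1% for all others and 18.5% for others with a partner, and the interval of the last again overlapped that of the 492. Against all 2832 others, the share was lower among the 492 on 11 of the 16 chromosomes and higher on 5, with replicate 1 and with replicate 2 neighbours alike. This difference was not tested, since peaks of 1 pair of libraries are not replicates.

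**Figure D5:**
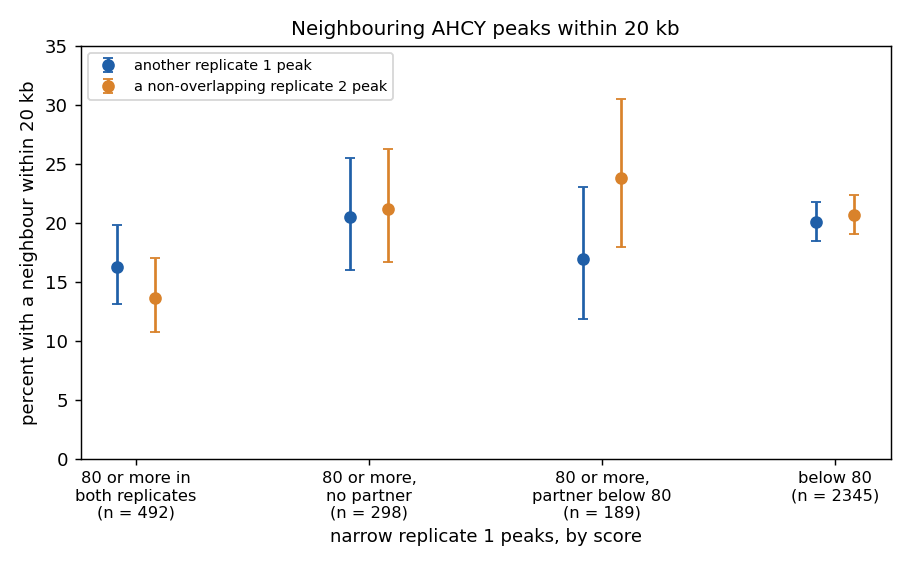
For 4 classes of narrow replicate 1 peaks, points give the percent with another replicate 1 peak within 20 kb (blue) or with a replicate 2 peak within 20 kb that does not overlap them (orange), with exact 95% intervals. The 492 peaks strong in both replicates have the lowest orange value, 13.6%, while the other 3 classes lie between 20.6% and 23.8%.

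The nearest other strong narrow site lay a median of 808 kb away. It was within 20 kb for 8 of the 492 (1.63%, 0.705 to 3.18%) and within 100 kb for 41 (8.33%, 6.05 to 11.1%). Of the 2832 other narrow peaks, 74 (2.61%, 2.06 to 3.27%) had one of the 492 within 20 kb and 322 (11.4%, 10.2 to 12.6%) within 100 kb. The intervals overlapped at both distances. The 8 formed 4 pairs. On chromosome 9, chr9:44688314-44690042 and chr9:44690244-44691743 were 0.201 kb apart and overlapped 1 and the same replicate 2 peak. On chromosome 2, chr2:74492847-74494751 (90.5 in replicate 1 and 99.5 in replicate 2) and chr2:74506157-74507280 (95.9 and 115.9) were 11.4 kb apart. Also on chromosome 2, chr2:152222202-152224348 (148.7 and 198.1) and chr2:152239584-152241184 (166.5 and 100.4) were 15.2 kb apart. On chromosome 12, chr12:110271033-110273054 (82.6 and 87.8) and chr12:110290893-110292582 (90.5 and 287.8) were 17.8 kb apart. Strength within a pair varied: in replicate 2 the first pair on chromosome 2 held ranks 366 and 278 among the 492, and the pair on chromosome 12 held ranks 439 and 17.

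At the other extreme, chr4:76095120-76096569 (85.7 and 97.6) lay 5898 kb from the nearest other replicate 1 peak. The next most isolated were chr16:72663001-72664187 (102.7 and 89.2), with 3679 kb, and chr1:30929587-30931122 (121.1 and 179.1), with 3028 kb. At the last of these the midpoints of the replicates differed by 2.5 bp, and another replicate 2 peak lay 75.4 kb away.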

How the data were processed

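Peak lists of 2 AHCY ChIP-seq libraries were used. The deposited score of each peak is the value of the authors' peak caller; per the file headers, the replicate 1 list came from a pool that is not described and the replicate 2 list names an IgG pool, so a shared control is not assured. The submitters' processing notes name mm9, Bowtie and TopHat, without roles or versions. Read depth is not given, so precision per peak is unknown.

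Starts were converted to count from 1. The partner of a peak was the overlapping replicate 2 peak with the highest score. Distances are gaps between peak edges. Ranks among the sites and their means order the regions named, which are the best 12, the best of each chromosome, the extremes of rank difference, width and spacing, and those beside the limit; the pairs within 20 kb and the top score in each list were added. The sites and these choices were made with earlier results of these data known. No significance test was made: the rule used both lists, and 2 libraries of 1 group allow none between groups. Gene and sequence context, planned for an mm9 reference, was not analysed, because the gene tables used are of GRCm38 (19 replicate 1 peaks lie beyond its last gene on chromosome 7) and no coordinates were converted. Overlap and spacing code was tested on simulated data and against bedtools 2.31.1. Software was scipy 1.17.1, pandas 2.3.3, numpy 2.4.6 and matplotlib 3.10.9 under Python 3.11.15. Score and width limits, overlap rule, partner choice, neighbour distance and chromosomes were varied, and each replicate was left out in turn.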

Additional observations from a re-analysis of the deposited data

How the results depend on the processing

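Of 41 values under alternative settings, 28 stayed within the 95% interval of the reported value or, for counts, within 1.5 times of it. Intervals of medians came from binomial order statistics and those of rho from Fisher's z. Some alternatives kept most of the same sites, such as 481 without chromosome 14 and 476 with a reciprocal overlap of 50%. The tally therefore cannot show how stable the results are. The number of sites was 229 with a score limit of 100 and 307 with a width limit of 2000 bp. It was 979 without replicate 2 and 1873 without replicate 1, since each list alone then sets the number. A limit of 70, no width limit, a reciprocal overlap of 50%, score limits of 78.5 and 90.1 that leave the best-scoring 33.3% of each list or omission of chromosome 14 gave 434 to 712. The share with a replicate 1 neighbour within 20 kb was 17.7% without replicate 2. Without replicate 1 the share was 20.3%, but there the peaks and their neighbours both came from the longer replicate 2 list. For the sites themselves, the share with a replicate 1 neighbour was 6.71% within 5 kb and 32.9% within 50 kb. With a width limit of 2000 bp the median midpoint distance was 116 bp, the common length 1310 bp and rho 0.22. Score limits of 70 and 100 gave common lengths of 1425.5 and 1583 bp. Chromosome 14 held 2.24% of the sites, 2.15% without replicate 2 and 8.49% without replicate 1; chromosome 2 held 12.6%, and 11.95% and 9.98%. Wider peaks allow more common length by construction. No paired analysis was possible because both libraries belong to 1 group. Read depth is unknown, so a site listed in 1 replicate is not shown to be absent from the other.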

Other observations

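At a few sites the lists drew peak borders differently. Of the 492 sites, 8 (1.63%) had a replicate 2 partner that also overlapped another replicate 1 peak, and 6 (1.22%) overlapped 2 or more replicate 2 peaks. Among the 8, the median midpoint distance was 538 bp and the median partner width 2371.5 bp, and midpoints were over 500 bp apart at 4. For the 478 sites with 1 partner that overlapped no other replicate 1 peak, the midpoint distance was 141 bp and rho between the scores 0.33, close to the 148 bp and 0.31 of all 492.

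Border placement touched sites named for their rank difference. The site chr17:34258209-34260062 shared 464 bp with a partner 3724 bp wide and lay 0.041 kb from another replicate 1 peak, and its midpoint was 2325 bp from that of the partner, the largest distance of the 492. The site chr9:44690244-44691743 shared 361 bp with its partner, the smallest common length of the 492. The replicate 2 score given for both of these sites is that of a peak centred outside them.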
